A study of Mus musculus with 24 samples.

Results

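Cytosolic nucleic acid sensing in macrophages was described through 7 genes, *Ifih1*, *Dhx58*, *Mavs*, *Zbp1*, *Cgas*, *Sting1* and *Trex1*, picked by gene symbol out of the 56691 genes measured. The libraries were made from poly(A) RNA of wild-type and *Olfml3* knockout mouse macrophages given PBS or lipopolysaccharide (LPS, a component of the Gram-negative outer membrane) at 100 ng/mL for 4 h. There were 8 groups of 3 libraries. In RAW264.7, a mouse macrophage-like leukemia line, the groups were RAW264.7 wild type with PBS, wild type with LPS, *Olfml3* knockout with PBS and *Olfml3* knockout with LPS, the knockout being a line grown from 1 sorted cell after lentiviral delivery of the guide. The same 4 groups were made of bone marrow-derived macrophages (BMDMs), grown in L929-conditioned medium from marrow of male C57BL/6 mice aged 8 weeks, either wild type or with a global *Olfml3* deletion made by CRISPR-Cas9. Groups were read from the titles, since the genotype tag goes against the title in 12 libraries. The study calls its replicates biological. No label says which libraries came from separate cultures or mice, so p-values measure only the spread between these libraries, which may be technical.

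RNA and DNA in the cytosol are read as signs of infection or damage. MDA5, encoded by *Ifih1*, binds long double-stranded RNA, LGP2, encoded by *Dhx58*, modulates MDA5 and RIG-I, and both receptors pass the signal to MAVS on the outer mitochondrial membrane. The enzyme cGAS binds double-stranded DNA and makes the cyclic dinucleotide cGAMP, which activates STING at the endoplasmic reticulum, whereas ZBP1 binds Z-form nucleic acids and engages RIPK3, and TREX1 is an exonuclease that removes cytosolic DNA. Both adaptors activate TBK1 and IRF3 and so interferon-beta, and several sensors are themselves induced by interferon.

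The upstream sequences shown are those of *Ifih1*, *Cgas* and *Mavs*, the genes with counts for which a RefSeq start was matched. They are the 250 bases before the RefSeq start of each gene in GRCm38.p6, read 5′ to 3′ in the direction of transcription, at chr2:62646256-62646505 (minus strand), chr9:78443238-78443487 (minus strand) and chr2:131233813-131234062 (plus strand). Capitals mark each match of GAAA, the core bound by interferon regulatory factors, on either strand (TTTC is its reverse).
Ifih1: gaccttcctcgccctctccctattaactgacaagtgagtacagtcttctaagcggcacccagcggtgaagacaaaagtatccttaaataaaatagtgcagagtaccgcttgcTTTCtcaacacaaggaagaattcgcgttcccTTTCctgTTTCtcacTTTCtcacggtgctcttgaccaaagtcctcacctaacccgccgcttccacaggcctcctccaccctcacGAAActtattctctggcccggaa
Cgas: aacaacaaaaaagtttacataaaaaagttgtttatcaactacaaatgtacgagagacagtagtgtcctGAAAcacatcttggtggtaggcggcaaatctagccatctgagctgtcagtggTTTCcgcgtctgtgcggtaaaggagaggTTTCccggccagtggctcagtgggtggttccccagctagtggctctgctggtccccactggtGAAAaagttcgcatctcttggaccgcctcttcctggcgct
Mavs: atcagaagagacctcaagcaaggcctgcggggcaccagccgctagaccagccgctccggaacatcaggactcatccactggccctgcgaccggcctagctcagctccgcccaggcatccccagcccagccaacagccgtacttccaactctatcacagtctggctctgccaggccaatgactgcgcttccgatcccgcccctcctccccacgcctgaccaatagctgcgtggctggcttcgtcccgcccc
The window of *Ifih1* held 5 matches of the core, that of *Cgas* 4 and that of *Mavs* 0, against a median of 2 over 32851 RefSeq windows of the same length. At least as many matches as in *Ifih1* were held by 16.8% of those windows, and as many as in *Cgas* by 28.9%, while 86.4% held at least 1. Longer elements searched on both strands included the interferon-stimulated response element GAAANNGAAA, which contains the core and is held by 2.98% of windows, and the NF-kappaB element GGGANNTTCC (1.21%). Neither was found in these 3 windows, which says only that those letters are not there. The GC content was 50% in the windows of *Ifih1* and *Cgas* and 65.2% in that of *Mavs*. Its part in the counts of the core was not tested, nor was that of the core in the response to LPS. Windows were matched for 4 of the 7 genes, *Ifih1*, *Cgas*, *Mavs* and *Trex1*, the last with 0 counts in all libraries.

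The series as a whole has these features. Counts summed to 11638273 to 16478616 per RAW264.7 library and 17121240 to 22873094 per BMDM library. *Olfml3* had 33 to 88 counts in wild-type BMDM libraries and 0 to 4 in knockout ones, but in RAW264.7 it went against the label, with 10 to 26 counts in wild type, 66 to 105 in libraries labelled knockout with PBS and 1357 to 1524 with LPS. Every RAW264.7 direction is that of the label. In RAW264.7 labelled knockout with PBS, replicate 1 was less correlated with the rest of its group (0.964) than with wild type (0.973). Genotype results with PBS are given with and without this replicate where a sensor or adaptor call, or a count over a gene list, changed. The summed level of 10 macrophage markers was 12540 to 17920 FPKM (a level scaled to gene length and library total) in BMDMs with all 10 present, and in RAW264.7 it was 3494 to 4262 FPKM in wild type and 1252 to 1572 in libraries labelled knockout, with *Mertk* at 0 throughout. Its part in the results was not tested. The 7 T cell markers summed to 0.1 to 2.72 FPKM in RAW264.7, and in BMDMs to 15.95 to 17.69 in wild type with LPS, 7.19 to 7.37 in knockout with LPS and 6.46 to 8.7 with PBS, with *Cd3e* at 0 in all 8 groups. Of the T cell markers 4 to 5 were at 0 in each BMDM group. A mean of at least 1 FPKM was held by 1 of them with PBS and 2 with LPS. The 6 neutrophil markers summed to 4.58 to 8.17 FPKM in BMDMs and at most 0.73 in RAW264.7, with *Ly6g* at 0 throughout. In each BMDM group *Ly6g* was the only 1 of the 6 at 0, and 2 had a mean of at least 1 FPKM. The part of either in the results was not tested.

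Differences between groups were tested by limma, using log2(FPKM + 0.1), a scale that understates the change of low genes. A gene was called when it changed by 1.5-fold or more with a Benjamini-Hochberg adjusted p below 0.05. LPS moved the scaling of the libraries. The median log2 fold change of genes with a mean of at least 1 FPKM was -0.21 in wild-type RAW264.7 and -0.73 in wild-type BMDMs, against 0.01 and 0.03 when edgeR scaled the counts, shifts of 0.22 and 0.76. In knockout the shifts were 0.20 and 0.66, and knockout against wild type in BMDMs with LPS shifted by -0.14. Where this matters the edgeR value, which is relative to that median, stands beside the limma value. In bulk RNA fewer cells of a type and less RNA per cell cannot be told apart.

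**Figure D1:**
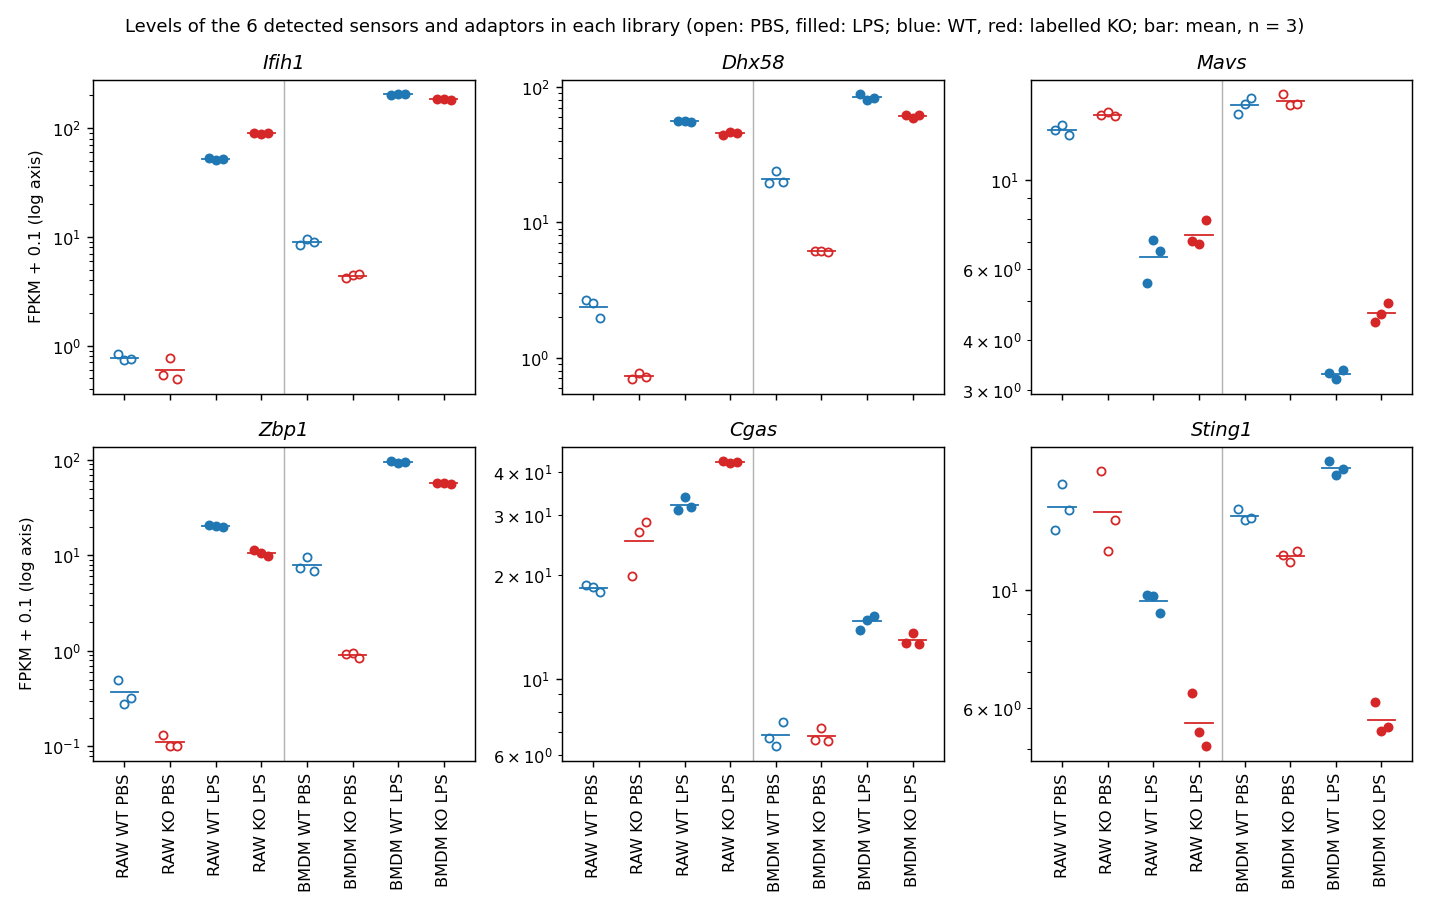
FPKM + 0.1 on a log axis in each of the 24 libraries for the 6 genes with counts, by group (3 points per group, the bar is the mean; open points PBS, filled points LPS, blue wild type, red labelled knockout). *Ifih1*, *Dhx58* and *Zbp1* span the widest ranges and rise with LPS in both genotypes, while *Mavs* falls with LPS and *Sting1* is lowest in the 2 knockout groups with LPS.

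The RNA sensors *Ifih1* and *Dhx58* rose with LPS and started from a lower level in knockout BMDMs. In BMDMs with PBS, *Ifih1* stood at 8.31, 9.42 and 8.89 FPKM in wild type and at 4.12, 4.32 and 4.44 FPKM in knockout. With LPS it stood at 200.18, 204.86 and 205.08 FPKM in wild type and 186.06, 183.67 and 181.14 FPKM in knockout. The groups did not overlap under either treatment, but the gap closed from 2.04-fold with PBS to 1.11-fold with LPS. The log2 fold change of knockout over wild type was -1.03 with PBS (SE 0.05, limma, adjusted p = 3.80e-06) and -0.15 with LPS (SE 0.05, adjusted p = 0.1004; edgeR -0.29, adjusted p = 5.55e-08, under 1.5-fold), and the difference between them was 0.88 (SE 0.08, limma interaction, adjusted p = 0.000234).

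In RAW264.7 *Ifih1* was nearly silent at rest, at 0.74, 0.64 and 0.65 FPKM in wild type and 0.44, 0.67 and 0.39 FPKM in libraries labelled knockout, and these groups overlapped. LPS raised it to 53.08, 50.93 and 51.63 FPKM in wild type and to 90.50, 88.56 and 89.49 FPKM in libraries labelled knockout. All 3 labelled knockout libraries with LPS thus lay above all wild-type ones, by 1.72-fold (log2 fold change 0.79, SE 0.15, limma, adjusted p = 0.00522). With PBS the log2 fold change was -0.40 (SE 0.15, adjusted p = 0.103), and without replicate 2 labelled knockout it was -0.59 (adjusted p = 0.00533). The interaction was 1.18 (SE 0.21, limma, adjusted p = 0.0191). Its adjusted p passed 0.05 when wild-type PBS replicate 1, or wild-type LPS replicate 2 or 3, was left out, at 0.0571, 0.0552 and 0.0523, with the estimate at 1.13 to 1.18.

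*Dhx58* was lower at rest in knockout BMDMs and in RAW264.7 labelled knockout. BMDMs with PBS had 19.29, 23.84 and 19.66 FPKM in wild type and 6.06, 6.03 and 5.91 FPKM in knockout, a log2 fold change of -1.78 (SE 0.08, limma, adjusted p = 1.25e-06). RAW264.7 with PBS had 2.56, 2.42 and 1.86 FPKM in wild type and 0.59, 0.67 and 0.62 FPKM in libraries labelled knockout, a log2 fold change of -1.70 (SE 0.11, adjusted p = 1.17e-05). No wild-type library overlapped a knockout library in either cell type, and the resting deficits were 3.43-fold and 3.25-fold.

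With LPS the deficit in *Dhx58* narrowed. Wild-type BMDMs reached 88.83, 80.79 and 83.61 FPKM and knockout BMDMs 61.93, 59.33 and 62.44 FPKM. Wild-type RAW264.7 reached 56.11, 56.42 and 55.00 FPKM and libraries labelled knockout 44.22, 46.37 and 45.29 FPKM. The groups still lay apart, with log2 fold changes of -0.46 in BMDMs (SE 0.08, limma, adjusted p = 0.00318) and -0.30 in RAW264.7 (SE 0.11, adjusted p = 0.0772), neither past the call. In BMDMs the edgeR value of -0.61 (adjusted p = 4.78e-11) was past it. The interactions were 1.32 (SE 0.11, limma, adjusted p = 0.000227) and 1.40 (SE 0.16, adjusted p = 0.00181).

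*Mavs*, the adaptor downstream of MDA5, moved the other way from *Ifih1* and *Dhx58* with LPS. It stood at 14.49, 15.32 and 15.92 FPKM in wild-type BMDMs with PBS and at 3.21, 3.09 and 3.27 FPKM with LPS. Knockout BMDMs went from 16.26, 15.24 and 15.31 FPKM to 4.34, 4.53 and 4.85 FPKM. The fall was called in both genotypes, by 2.22 on the log2 scale in wild type (SE 0.06, limma, adjusted p = 6.99e-10, edgeR -1.48) and by 1.75 in knockout (SE 0.06, adjusted p = 3.93e-09, edgeR -1.10). With LPS the 3 knockout BMDM libraries lay above the wild-type ones, with a log2 fold change of 0.51 (SE 0.06, limma, adjusted p = 0.000377, edgeR 0.37), which is under the 1.5-fold threshold. The interaction of 0.47 (SE 0.08, adjusted p = 0.0102) was under it as well.

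In RAW264.7 *Mavs* fell from 13.23, 13.59 and 12.87 FPKM to 5.44, 6.97 and 6.57 FPKM in wild type and from 14.37, 14.62 and 14.35 FPKM to 6.96, 6.83 and 7.83 FPKM in libraries labelled knockout. The log2 fold changes were -1.06 (SE 0.10, limma, adjusted p = 3.12e-05, edgeR -0.84) and -0.996 (SE 0.10, adjusted p = 3.79e-05, edgeR -0.77). Genotype was not called under either treatment, at 0.13 with PBS (95% confidence interval -0.10 to 0.35) and 0.19 with LPS (-0.03 to 0.41).

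*Zbp1*, the sensor of Z-form nucleic acids, was lower in knockout in all 4 comparisons. In BMDMs with PBS it stood at 7.26, 9.43 and 6.74 FPKM in wild type and 0.82, 0.84 and 0.73 FPKM in knockout. With LPS it stood at 97.05, 91.74 and 94.32 FPKM in wild type and 57.02, 57.11 and 55.20 FPKM in knockout. The groups did not overlap, and the deficit was 8.74-fold at rest (log2 fold change -3.13, SE 0.11, limma, adjusted p = 3.26e-07) and 1.67-fold with LPS (-0.74, SE 0.11, adjusted p = 0.00141). The interaction was the largest among these genes, at 2.39 (SE 0.15, limma, adjusted p = 5.13e-05).

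In RAW264.7 with PBS *Zbp1* was close to the counting limit, with 19, 10 and 10 counts in the wild-type libraries and 2, 0 and 0 in those labelled knockout. Pooled over libraries and scaled to their totals, the ratio of wild type to labelled knockout was 21.4 (exact 95% interval 5.54 to 183, counting error only). With LPS the gene reached 20.45, 20.20 and 19.56 FPKM in wild type and 11.20, 10.39 and 9.83 FPKM in libraries labelled knockout, which did not overlap, and it was 1.91-fold lower in the latter (log2 fold change -0.93, SE 0.20, limma, adjusted p = 0.00893). That call was lost with TPM (-0.70, limma, adjusted p = 0.111) and with a pseudocount of 0.01 (adjusted p = 0.236). The PBS difference was called too (adjusted p = 0.000539, limma), with a fitted log2 fold change that depends on the added 0.1 (-1.70, against -4.19 by edgeR). The RAW264.7 interaction of *Zbp1* depended on it as well, at 0.77 (adjusted p = 0.317) by limma, -0.56 with a pseudocount of 1 and 3.22 (adjusted p = 0.0185) by edgeR, so no direction is given.

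**Figure D2:**
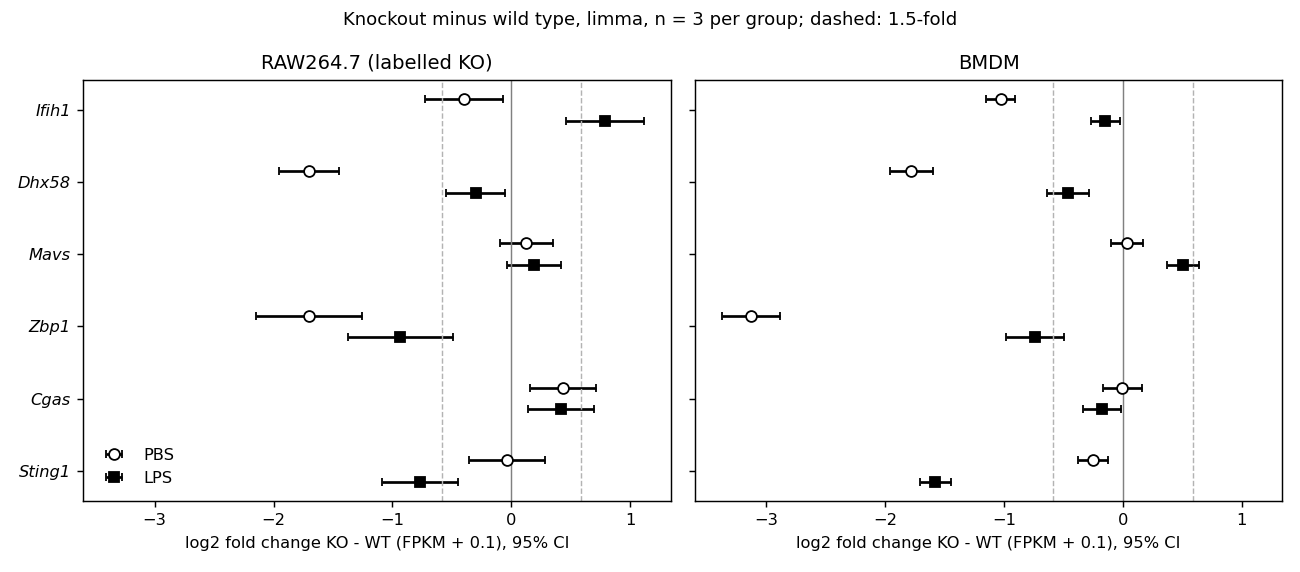
Log2 fold change of knockout over wild type on the log2(FPKM + 0.1) scale with 95% confidence intervals from limma (n = 3 libraries per group; circles PBS, squares LPS; dashed lines 1.5-fold). *Dhx58* and *Zbp1* lie left of the dashed line with PBS in both cell types, and *Sting1* lies left of it with LPS only, at -0.77 in RAW264.7 and -1.58 in BMDMs.

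*Cgas*, the DNA sensor, rose by less with LPS than the RNA sensors and was not called for genotype in any of the 4 comparisons, although alternatives given with the RAW264.7 values called it there. BMDMs had 6.60, 6.25 and 7.35 FPKM in wild type with PBS and 13.79, 14.77 and 15.17 FPKM with LPS. Knockout BMDMs had 6.52, 7.08 and 6.50 FPKM with PBS and 12.59, 13.52 and 12.53 FPKM with LPS. Genotypes overlapped with PBS, where the interval of the log2 fold change was -0.17 to 0.16, and lay apart with LPS by -0.18 (SE 0.07, limma, adjusted p = 0.139; edgeR -0.32, adjusted p = 2.46e-05, under 1.5-fold). LPS raised *Cgas* by 1.10 in wild type and 0.93 in knockout on the log2 scale (SE 0.07 each, limma, adjusted p = 3.94e-07 and 1.63e-06; edgeR 1.89 and 1.61).

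In RAW264.7 *Cgas* stood at 18.60, 18.45 and 17.81 FPKM in wild type with PBS and 30.94, 33.64 and 31.63 FPKM with LPS. Libraries labelled knockout had 19.84, 26.74 and 28.55 FPKM with PBS and 43.02, 42.45 and 42.86 FPKM with LPS. The labelled knockout libraries lay above wild type under both treatments, replicate 1 with PBS only just. The log2 fold change was 0.43 with PBS (SE 0.12, limma, adjusted p = 0.0494) and 0.42 with LPS (SE 0.12, adjusted p = 0.0352), both under 1.5-fold. With TPM the LPS value was 0.65 (limma, adjusted p = 0.0310), past the call. Without replicate 1 labelled knockout the PBS value was 0.59 (adjusted p = 7.66e-05, limma), just past the call.

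*Sting1*, the adaptor that cGAMP activates, showed a knockout deficit that was larger with LPS than at rest. In BMDMs with PBS it stood at 14.11, 13.42 and 13.58 FPKM in wild type and 11.53, 11.21 and 11.74 FPKM in knockout. With LPS wild type stood at 17.41, 16.39 and 16.80 FPKM and knockout at 6.04, 5.32 and 5.41 FPKM. The groups were apart under both treatments, by a log2 fold change of -0.25 with PBS (SE 0.06, limma, adjusted p = 0.0411, under 1.5-fold) and -1.58 with LPS (SE 0.06, adjusted p = 1.67e-06), which is 2.99-fold. The interaction was -1.33 (SE 0.08, limma, adjusted p = 3.97e-05), the only negative one called among these genes in BMDMs.

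The response of *Sting1* to LPS in BMDMs depended on the scaling. In wild type the log2 fold change was 0.30 by limma (SE 0.06, adjusted p = 0.00129, under 1.5-fold) and 1.07 by edgeR (adjusted p = 1.63e-17), a call in a comparison where edgeR called 25.1% of genes higher. In knockout it was -1.03 by limma (SE 0.06, adjusted p = 1.41e-07) and -0.36 by edgeR (adjusted p = 7.65e-06), which is under 1.5-fold, so the call was lost, as it was with DESeq2 and median-ratio scaling (-0.34 each). Wild type was higher and knockout lower with LPS under both, so the directions of the genotypes differed whichever scaling was used.

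In RAW264.7 with PBS *Sting1* did not separate the genotypes, at 12.90, 15.75 and 14.04 FPKM in wild type and 16.65, 11.72 and 13.43 FPKM in libraries labelled knockout (95% confidence interval of the log2 fold change -0.36 to 0.28). LPS lowered it to 9.69, 9.62 and 8.95 FPKM in wild type and to 6.30, 5.29 and 4.97 FPKM in libraries labelled knockout. The latter lay below all wild-type libraries, by 1.70-fold (log2 fold change -0.77, SE 0.14, limma, adjusted p = 0.00504), or by -0.54 with TPM, which is under 1.5-fold. The interaction was -0.73 (SE 0.20, adjusted p = 0.143). The fall with LPS was -1.31 in libraries labelled knockout (SE 0.14, limma, adjusted p = 6.57e-05, edgeR -1.10). In wild type it was -0.59 (SE 0.14, adjusted p = 0.0128, edgeR -0.37), a call that was lost by edgeR and when wild-type PBS replicate 2 or wild-type LPS replicate 3 was left out (-0.51, adjusted p = 0.0540, and -0.55, adjusted p = 0.0486).

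In the GENCODE M21 annotation of GRCm38, *Ifih1* lies on chromosome 2 from 62595798 to 62646255 (minus strand), *Mavs* on chromosome 2 from 131234063 to 131248025 (plus strand) and *Zbp1* on chromosome 2 from 173206612 to 173218923 (minus strand). *Dhx58* lies on chromosome 11 from 100694884 to 100704271 and *Cgas* on chromosome 9 from 78430526 to 78443237, both on the minus strand. The starts in the deposited tables differ from these for all 7 genes while the exonic lengths are the same, so positions are given from the annotation only.

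*Trex1*, the DNA exonuclease, had 0 counts in all 24 libraries, so it was not tested and no comparison can be made. A count of 3 would have given at most 0.225 FPKM per library. In the same annotation *Trex1* lies on chromosome 9 from 109057933 to 109059734, minus strand, and 100.0% of its exonic bases also lie in exons of *Atrip* on the same strand. *Atrip*, which encodes the partner of the ATR kinase, had group means of 1.45 to 5.44 FPKM. How reads shared by both genes were counted is not given in the sources used here, so 0 counts do not show that *Trex1* was silent. Of the other 6 genes, *Dhx58* shares 4.31% and *Cgas* 4.87% of exonic bases with a gene on the opposite strand and the others share none.

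Counted together, 2 of the 6 tested genes were called in RAW264.7 with PBS, *Dhx58* and *Zbp1*, both lower, where 4.79% of the 26740 genes tested were called higher and 3.77% lower (higher calls were 56% of all calls, and 68.9% with TPM). With LPS 3 were called, *Ifih1* higher and *Zbp1* and *Sting1* lower, where 9.73% of genes were higher and 7.6% lower. With TPM 2 were called there, *Ifih1* and *Cgas*, both higher, and 75% of all calls were higher against 56.1% without it. In BMDMs with PBS 3 were called, *Ifih1*, *Dhx58* and *Zbp1*, all lower, where 0.901% of 26973 genes were higher and 0.916% lower. With LPS 2 were called lower, *Zbp1* and *Sting1*, where 3.23% were higher and 1.53% lower (higher calls were 67.9% of all calls, 49.4% by edgeR and 43.4% with median-ratio scaling). *Zbp1* was the only one of the 6 called in all 4 comparisons.

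**Figure D3:**
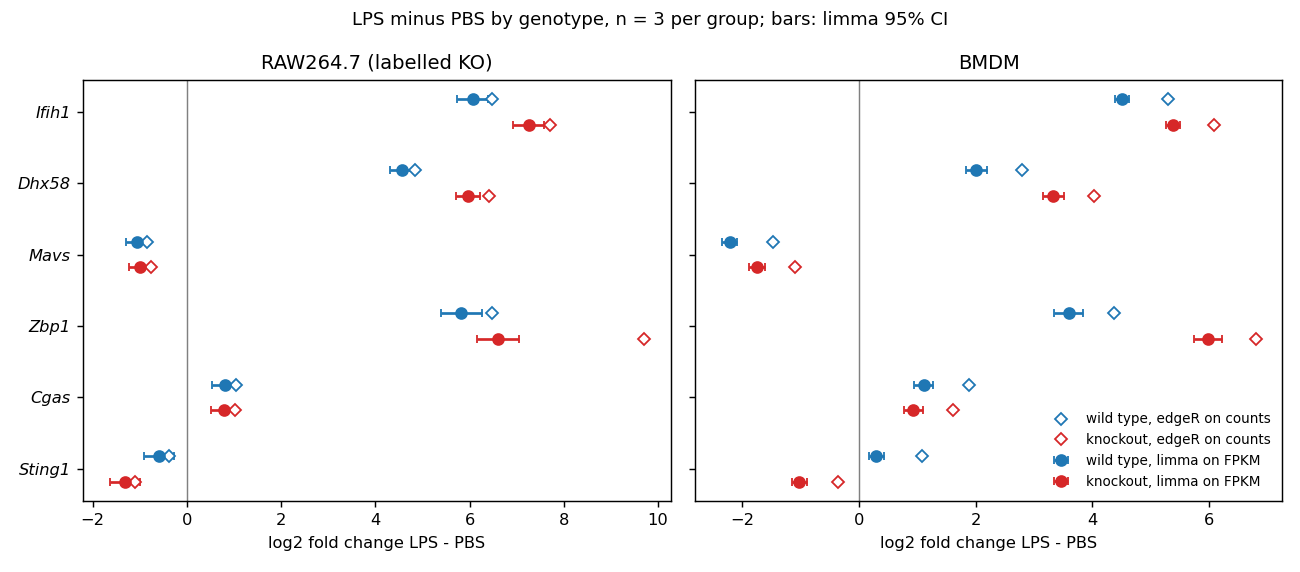
Log2 fold change of LPS over PBS by genotype (blue wild type, red knockout; n = 3 libraries per group). Filled circles with 95% confidence intervals are limma on log2(FPKM + 0.1) and open diamonds are edgeR on counts, which in most rows lie to the right by about the shift of the median gene. *Sting1* in BMDMs lies right of 0 in wild type and left of it in knockout under both.

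LPS called 4 of the 6 tested genes higher (*Ifih1*, *Dhx58*, *Zbp1* and *Cgas*) in each genotype of each cell type. *Ifih1* rose by 6.07 and 7.25 on the log2 scale in RAW264.7 wild type and labelled knockout and 4.505 and 5.39 in BMDM wild type and knockout (limma, adjusted p from 5.36e-12 to 3.58e-09; edgeR 6.48, 7.71, 5.29 and 6.09). *Dhx58* rose by 4.57 and 5.97 in RAW264.7 and by 2.01 and 3.33 in BMDMs (adjusted p from 3.90e-10 to 1.04e-08; edgeR 4.83, 6.41, 2.78 and 4.02). *Zbp1* rose by 3.59 and 5.98 in BMDMs (adjusted p = 1.79e-09 and 7.98e-11; edgeR 4.37 and 6.80) and by 5.83 in wild-type RAW264.7 (adjusted p = 2.76e-08; edgeR 6.48). In RAW264.7 labelled knockout the 1368 counts of *Zbp1* with LPS against 2 with PBS made a ratio of 864 (exact 95% interval 239 to 7140, counting error only). In wild-type RAW264.7 5.8% of genes were called higher and 12.5% lower, and in libraries labelled knockout 7.45% and 14.6%. In wild-type BMDMs 7.94% were called higher and 32.5% lower, and in knockout BMDMs 8.02% and 30.9%. These splits depend on the scaling, since higher calls were 19.6% of all calls in wild-type BMDMs by limma, 44.8% by edgeR and 47.9% with median-ratio scaling, and 20.6%, 44.7% and 46.8% in knockout. In RAW264.7 they were 31.7%, 46.9% and 49.7% in wild type and 33.8%, 46.5% and 51.7% in libraries labelled knockout. *Mavs* was called lower in each of these 4 comparisons and *Sting1* in each but wild-type BMDMs, though by edgeR *Sting1* was called lower in RAW264.7 labelled knockout alone.

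The effect of genotype differed between LPS and PBS for 2 of the 6 tested genes in RAW264.7, *Dhx58* and *Ifih1*, both positive, where 0.905% of genes had a positive interaction called and 1.04% a negative one. In BMDMs it differed for 4, positive for *Zbp1*, *Dhx58* and *Ifih1* and negative for *Sting1*, where 1.91% were positive and 1.02% negative (positive calls were 65.1% of all calls, and 46.8% with median-ratio scaling). A positive value means that knockout stood higher relative to wild type with LPS than with PBS. When replicate 1 of RAW264.7 labelled knockout with PBS was left out, 3 genes were called with PBS, the third being *Cgas*, while 3 with LPS and 2 in the interaction were called as before.

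Other genes of these pathways were described as 6 lists of 92 genes chosen by role. Their counts stand against all genes, of which 4.79% were called higher and 3.77% lower in RAW264.7 labelled knockout with PBS, 9.73% and 7.6% there with LPS, 0.901% and 0.916% in knockout BMDMs with PBS, and 3.23% and 1.53% with LPS. Leaving out replicate 1 labelled knockout raised the genes called in RAW264.7 with PBS from 2287 of 26740 to 5523 of 26538. By edgeR 3116 of 13639 genes were called for genotype in RAW264.7 with PBS (60.9% of them higher) and 4498 with LPS (52% higher). In BMDMs edgeR called 530 of 14057 with PBS (47.7% higher) and 1279 with LPS (49.4% higher). For counts at an unadjusted p no share over all genes was taken. Genes of the interferon output, such as *Isg15*, had the most calls for genotype with PBS. In BMDMs with PBS 13 of 16 tested were called lower in knockout and 0 higher, with a median log2 fold change of -2.21 against 0.01 over all genes tested. *Isg15*, a ubiquitin-like modifier, went from 26.4 ± 2.44 to 4.06 ± 0.746 FPKM (SD, n = 3 each; log2 fold change -2.68, SE 0.12, limma, adjusted p = 1.61e-06). In RAW264.7 with PBS 8 of 15 were lower and 1 higher (median -0.92 against 0.02), and the counts were 8 and 1 without replicate 1 labelled knockout. With LPS 5 of 16 and 5 of 15 were lower and 0 higher. LPS called 15 of 16 and 15 of 15 higher in both genotypes. The summed level of 5 plasmacytoid dendritic cell markers, among them *Bst2* and *Irf8*, which macrophages also express, moved with the same groups, from 169.7 to 193.5 FPKM in wild-type BMDMs with PBS and 78.03 to 82.86 in knockout, and none of the 5 was at 0. Its part in the result was not tested.

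*Ifnb1* encodes interferon-beta, the cytokine at the end of these pathways. It had 0 counts in all 6 RAW264.7 libraries with PBS and group means of 18.6 ± 0.139 FPKM in wild type and 22.3 ± 1.27 FPKM in libraries labelled knockout with LPS. In BMDMs with PBS it had 3 counts over the wild-type libraries and 0 over the knockout ones. In BMDMs with LPS wild type stood at 6.21 ± 1.13 FPKM and knockout at 2.53 ± 0.196 FPKM (SD, n = 3 each), lower by 1.25 on the log2 scale (SE 0.25, limma, adjusted p = 0.00652). The RAW264.7 difference of 0.26 (SE 0.07, adjusted p = 0.0213) was under 1.5-fold, so the call was made in BMDMs and not in RAW264.7, and the difference between cell types was not tested.

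Of the RIG-I-like receptor list 2 of 18 were lower in knockout BMDMs with PBS, and with LPS 0 were called by limma (9 at an unadjusted p under 0.05) and 1 lower by edgeR. One of the 2 was *Ddx58*, which encodes RIG-I, the receptor of short RNA with a 5′ triphosphate and a relative of MDA5. It went from 14.0 ± 1.35 to 4.72 ± 0.141 FPKM (log2 fold change -1.54, SE 0.07, limma, adjusted p = 1.13e-06) and from 1.12 ± 0.154 to 0.417 ± 0.0577 FPKM in RAW264.7 (-1.23, SE 0.11, adjusted p = 0.000127). Its interaction was 1.41 in BMDMs and 1.08 in RAW264.7 (SE 0.09 and 0.16, adjusted p = 5.87e-05 and 0.00902). Of the RAW264.7 list 2 of 18 were higher and 1 lower with PBS, and 5 and 1 without replicate 1 labelled knockout. *Nlrx1*, a mitochondrial NOD-like receptor known to restrain MAVS, was higher in RAW264.7 labelled knockout with PBS (1.08, SE 0.16, adjusted p = 0.00245) and with LPS (0.75, SE 0.16, adjusted p = 0.00960), and stood at -0.21 and 0.19 in BMDMs with neither called. *Trim25*, a ubiquitin ligase that acts on RIG-I, was not called for genotype in either cell type (0.32 and 0.40 in RAW264.7, -0.22 and -0.05 in BMDMs).

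At the kinase step, 1 of 12 genes was lower in knockout BMDMs with PBS and 2 of 12 in RAW264.7, and 0 were higher (1 in RAW264.7 without replicate 1 labelled knockout). *Irf7*, the inducible regulator of interferon genes, fell from 23.5 ± 3.44 to 2.05 ± 0.0800 FPKM in BMDMs (log2 fold change -3.45, SE 0.09, limma, adjusted p = 6.85e-08) and from 5.07 ± 0.472 to 0.450 ± 0.0173 FPKM in RAW264.7 (-3.23, SE 0.08, adjusted p = 2.27e-08). *Ikbke*, the inducible kinase, was lower in RAW264.7 (-1.47, SE 0.07, adjusted p = 1.55e-06) and stood at -0.12 in BMDMs (adjusted p = 0.320). The constitutive kinase *Tbk1* was not called in any of the 4 genotype comparisons (0.38 and 0.29 in RAW264.7, -0.16 and -0.05 in BMDMs), nor was *Irf3*, its substrate (-0.17 and -0.16, 0.10 and 0.33).

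Of the genes that regulate or traffic cGAS and STING, 0 were called for genotype with PBS in either cell type, of 19 and 20 tested, but without replicate 1 labelled knockout 2 were higher and 1 lower in RAW264.7. At an unadjusted limma p under 0.05 there were 8 in RAW264.7 and 6 in BMDMs, and edgeR called 2 higher in RAW264.7 and 0 in BMDMs. With LPS 2 of 19 were higher and 1 lower in RAW264.7 labelled knockout (2 and 4 by edgeR). In BMDMs with LPS 3 of 20 were higher in knockout and 0 lower (2 and 1 by edgeR), among them *Slc19a1*, an importer of cyclic dinucleotides (0.72, SE 0.18, limma, adjusted p = 0.0242), and *Trim56*, a ubiquitin ligase of the pathway (0.66, SE 0.08, adjusted p = 0.000428). Both are limma values, that of *Trim56* near the 1.5-fold threshold, in a comparison where edgeR shifted the median by -0.14. By limma *Trim56* was also higher in RAW264.7 labelled knockout with LPS (0.93, SE 0.25, adjusted p = 0.0244). *Enpp1*, which hydrolyses cGAMP outside cells, was not called for genotype in BMDMs (0.30 and 0.15).

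Enzymes that degrade or edit nucleic acids gave 2 of 16 lower in knockout BMDMs with PBS, *Samhd1*, which hydrolyses deoxynucleotides (-0.69, SE 0.04, limma, adjusted p = 1.23e-05), and *Adar*, which edits double-stranded RNA (-0.69, SE 0.06, adjusted p = 0.000125). With LPS 1 of 16 was lower in knockout BMDMs (3 by edgeR) and 0 were higher. In RAW264.7 labelled knockout 2 were lower and 2 higher with PBS (3 and 3 without replicate 1). With LPS 3 were lower and 2 higher there (4 and 2 without that replicate), and 3 and 1 by edgeR. *Adar* was among the higher ones by limma (0.59, SE 0.18, adjusted p = 0.0443), and edgeR did not call it higher. *Rnaseh2b*, a subunit of RNase H2, was lower there with LPS (-0.64, SE 0.14, adjusted p = 0.0104) and *Dnase2a*, the lysosomal DNase, was not called for genotype in any of the 4 comparisons.

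Among the partners of ZBP1 in cell death, *Mlkl*, the effector of necroptosis, was the 1 of 10 called in BMDMs with PBS, lower by 0.59 on the log2 scale (SE 0.07, limma, adjusted p = 0.00121). With LPS 1 of 10 was called lower in knockout BMDMs by limma and 1 by edgeR, and 0 were higher. In RAW264.7 labelled knockout with LPS 3 of 10 were lower, including *Mlkl* (-1.22, SE 0.08, adjusted p = 1.66e-05) and *Casp8*, the caspase that restrains necroptosis (-0.63, SE 0.09, adjusted p = 0.00133), and 1 was higher. With PBS 0 of 10 were called there by limma (6 at an unadjusted p under 0.05) and 0 by edgeR, and 1 higher without replicate 1 labelled knockout. *Ripk3*, the kinase ZBP1 engages, was not called for genotype in either cell type (-0.18 and -0.25 in RAW264.7, -0.06 and 0.10 in BMDMs).

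**Figure D4:**
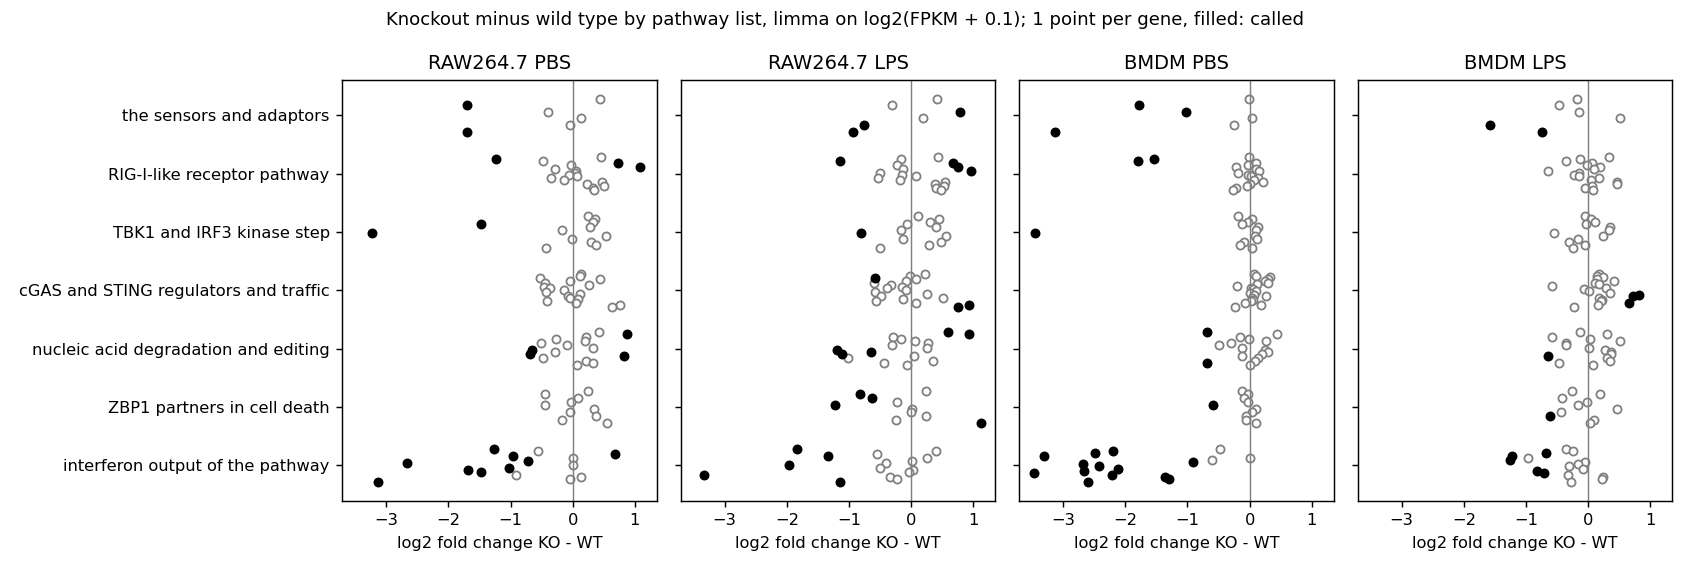
Log2 fold change of knockout over wild type on the log2(FPKM + 0.1) scale for the 6 tested sensors and adaptors and the 6 pathway lists, with 1 point per gene, filled where called. With PBS the filled points of the interferon output lie mostly left of 0 in both cell types, while the cGAS and STING regulators have 0 filled points.

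The order of the 8 group means differed between the genes. *Ifih1* ran from 203 ± 2.77 FPKM (SD, n = 3) in wild-type BMDMs with LPS, through 184 ± 2.46 in knockout BMDMs with LPS, 89.5 ± 0.970 and 51.9 ± 1.10 in RAW264.7 labelled knockout and wild type with LPS, 8.87 ± 0.555 and 4.29 ± 0.162 in BMDM wild type and knockout with PBS, to 0.677 ± 0.0551 and 0.5 ± 0.149 in RAW264.7 wild type and labelled knockout with PBS, and only the last neighbours overlapped. For *Dhx58* and *Zbp1* the 3 libraries of all neighbours lay apart, from 84.4 ± 4.08 and 94.4 ± 2.66 FPKM in wild-type BMDMs with LPS to 0.627 ± 0.0404 and 0.01 ± 0.0173 in RAW264.7 labelled knockout with PBS. *Mavs* was highest in the PBS groups, at 15.6 ± 0.570 in knockout BMDMs, and lowest in wild-type BMDMs with LPS, at 3.19 ± 0.0917. Its neighbours that overlapped were the 2 BMDM groups with PBS, wild-type BMDMs and RAW264.7 labelled knockout with PBS, and the 2 RAW264.7 groups with LPS. *Cgas* was highest in RAW264.7 labelled knockout with LPS (42.8 ± 0.294) and lowest in the BMDM groups with PBS, which overlapped at 6.73 ± 0.562 and 6.70 ± 0.329. *Sting1* was highest in wild-type BMDMs with LPS (16.9 ± 0.513) and lowest in knockout BMDMs and RAW264.7 labelled knockout with LPS, which overlapped at 5.59 ± 0.392 and 5.52 ± 0.694, and the RAW264.7 groups with PBS overlapped each other and wild-type BMDMs with PBS. In all, 34 of 42 neighbouring pairs lay apart. No share over all genes was taken for this count, so it does not set these genes apart from others. The tables of the cell types were normalised separately, so levels across them are side by side and not tested.

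Genes with the most similar pattern were taken as those with the highest Pearson correlation of log2(FPKM + 0.1), using the smaller of the values over 12 RAW264.7 and over 12 BMDM libraries, among 9472 genes. These points share groups, depth and scaling, and the values are descriptions. *Dhx58* and *Zbp1* were each other's most similar gene (0.995), followed for both by *Xaf1* and *Axl* (0.993 to 0.995). *Ifih1* was most like *Parp14* (0.997), *Car13* (0.995) and *Parp9* (0.993), *Cgas* most like *Resf1* (0.988), *Zc3h7a* (0.988) and *Tab2* (0.987), and *Mavs* most like *AU020206* (0.987), *Sppl2b* (0.986) and *Slc35f6* (0.986). *Sting1* had no gene as close, the nearest being *Ly86* (0.906), *Fam53a* (0.893) and *Ubl3* (0.882).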

How the data were processed

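Poly(A) RNA of 24 libraries was sequenced as paired reads. For each cell type the authors deposited a table that holds whole-number counts per gene and FPKM values rounded to 2 decimals. The submitters' processing notes name mm10. No aligner, counter or annotation was named (not given in the sources used here). Each FPKM equals the count divided by exonic length and library total, rescaled, within 1% for values over 50 counts. Gene annotation columns gave the symbols, the exonic lengths and the positions compared with GENCODE M21. Of the value columns 0 were without a sample.

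Groups were taken from titles. limma 3.58.1 (R 4.3.3) was fitted per cell type to log2(FPKM + 0.1) of 12 libraries, over genes above 0 in at least 1 library, with Benjamini-Hochberg adjustment over all of them. A call required an adjusted p below 0.05 together with a change of 1.5-fold or more. Alternatives were edgeR 4.0.16 and DESeq2 1.42.0 on counts, other pseudocounts, filters and scalings, TPM, an intensity trend, a replicate block and leaving out each library. The scripts were tested on simulated data. Totals of 11638273 to 22873094 counts set the precision, and intervals on counts cover counting error only.

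Members and lists were chosen with earlier results of these data known. Named genes were the 7 members, *Olfml3*, 20 list genes picked by role (1 is not reported here), and for each member the 3 genes of most similar pattern. Upstream sequences came from RefSeq (GRCm38.p6).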

Additional observations from a re-analysis of the deposited data

Results flagged for a closer look

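The effect of genotype differed between LPS and PBS (limma interaction, log2 scale) in RAW264.7 for *Dhx58* (1.40) and *Ifih1* (1.18). In BMDMs it differed for *Zbp1* (2.39), *Dhx58* (1.32), *Ifih1* (0.88) and *Sting1* (-1.33), the last of which alone was negative.

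Further, 3 contrasts had opposite signs in the cell types with no overlap of libraries in either, and the difference between cell types was not tested. No share over all genes was taken for this count. *Ifih1* with LPS stood at 0.79 for knockout against wild type in RAW264.7 and -0.15 in BMDMs, the latter not called. *Cgas* with LPS stood at 0.42 and -0.18, neither of them called. *Sting1* with LPS against PBS in wild type stood at -0.59 in RAW264.7 and 0.30 in BMDMs, the latter not called.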

How the results depend on the processing

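Of 1212 alternative values for single genes, 1150 kept their direction and side of the threshold, 23 passed it, 21 lost it and 18, none of them past it, changed sign. Genes called in RAW264.7 with PBS went from 2 to 1 with a pseudocount of 1, and in BMDMs with LPS from 2 to 4 on adjusted p alone. The RAW264.7 interaction went from 2 to 1 with a pseudocount of 0.01 or TPM and to 4 with DESeq2 or edgeR without a filter, and the cause was not tested. With each library left out in turn, the genes called numbered 2 to 3 and 3 to 3 for genotype in RAW264.7 with PBS and LPS, 5 to 6 and 6 to 6 for LPS in wild type and labelled knockout, and 1 to 2 for the interaction. The same counts in BMDMs were 3 to 3, 2 to 2, 5 to 5, 6 to 6 and 4 to 4. TPM ended the RAW264.7 calls with LPS of *Zbp1* (-0.70, limma, adjusted p = 0.111) and *Sting1* (-0.54, under 1.5-fold) and added one of *Cgas* (0.65, adjusted p = 0.0310), and a pseudocount of 0.01 that of *Zbp1* (adjusted p = 0.236). Neighbouring groups that lay apart numbered 33 of 42 when counts were scaled by TMM. Leaving out replicate 1 of RAW264.7 labelled knockout with PBS in comparisons that do not use it was an alternative chosen after seeing the data.

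Replicate numbers were not used to pair the libraries in the main fit. Deviations of libraries with the same number correlated at -0.0579 to 0.0844. Every library was closest to its own number in 2 of 8 comparisons, both in BMDMs. With 3 libraries per group these values cannot decide whether the numbers pair the libraries. With a replicate block the RAW264.7 interaction called 1 gene, *Ifih1* being at an adjusted p of 0.0530 (limma), and no other call for the 6 genes changed.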
